A study of Mus musculus with 3 samples.

Results

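The genes described here are transcription factors known from the hair matrix, the dividing keratinocytes at the base of a growing hair follicle that give rise to the hair shaft and the inner root sheath. The list named 10 genes: Msx1, Msx2, Dlx3, Dlx4, Foxn1, Hoxc13, Ovol1, Cux1, Nfil3 and Barx2. A UniGene cluster, a set of cDNA sequences thought to come from 1 gene, was assigned to a member by exact matches of its tags to that gene's transcripts. Its description was not used for this. This gave 12 clusters for 9 of the 10 genes, out of 14326 genes named by their tags in the whole series. Foxn1 had 2 clusters and Cux1 had 3, and Msx1 was not analysed here because no cluster was assigned to it by tags.

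As background, Wnt and BMP signals around the matrix are known to turn on homeobox genes such as Msx2 and Dlx3 in cells that leave the cell cycle and begin to differentiate. Hoxc13 and Foxn1 act further down and are needed for normal hair keratin expression, and mice without Foxn1 are the classical nude mice. Ovol1 is a zinc finger repressor linked to Wnt signalling that holds back proliferation in epithelial progenitors.

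Skin was taken from male C57BL/6 mice, aged 2 months, whose hair growth had been restarted by depilation 9 days before the injection. Whole skin was used, so follicle RNA was mixed with RNA of epidermis, dermis, fat and muscle. There were 3 libraries, 1 per group: untreated skin at day 0, and skin at day 1 and day 2 after an intraperitoneal dose of 150 mg/kg of cyclophosphamide, an alkylating drug that damages dividing cells. The sample labels write that dose per km, and the series text per kg. No untreated skin of the later days was profiled, so the drug and the added days of hair growth cannot be told apart. The sources used here do not say how many mice went into a library.

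Table totals were 2731787 tags for day 0, 2859653 for day 1 and 2636804 for day 2. Levels are given as CPM, tags per 1000000 of library sizes scaled by TMM (trimmed mean of M values), and ranges in brackets are exact 95% intervals that cover counting error only. To be called higher or lower, a cluster had to differ 2-fold or more between 2 libraries and reach an adjusted p of at most 0.001 in an exact binomial test of their tags (Benjamini-Hochberg over 13812 clusters). With 1 library in each group, no difference has a replicate check, and the test compares libraries, not conditions. In bulk tissue, fewer cells of a type and less RNA per cell cannot be told apart.

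Each transcript was read through tags of 21 bases that begin at a CATG, the cut site of the enzyme NlaIII. The tags that carried most of the counts are shown here because every level below is a count of these sequences. CATG is in capitals, and sites are numbered from the 3' end of the cluster as the tables number them.
Msx2, site 5: CATGtaccatctatcctaagg
Msx2, site 1: CATGtgcttgagttgctggag
Dlx3, site 1: CATGtacaggactttgcacaa
Dlx4, site 1: CATGggcttaatcgtccatat
Dlx4, site 4: CATGacctaggccctgtggcc
Foxn1, site at the 3' end: CATGacccaccaaatgggatc
Hoxc13, site 1: CATGgacacaggatctggggg
Hoxc13, site 2: CATGgacgggctgggcggtag
Ovol1, site 4: CATGtgcgctcttggtctttc
Ovol1, site 1: CATGgctgatctgaaggcttg
Cux1 short form, site 1: CATGatttgagttctgcttgc
Cux1 long form, site 2: CATGttaagtagtctgttact
Cux1 long form, coding site 7: CATGaagaggcgacacagctc
Cux1 both forms, coding site 17: CATGgagtttgcaccatcgga
Nfil3, site 1: CATGgaggaggaggctgttgg
Barx2, site 1: CATGggcctagagaagaaatt

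All 12 clusters had their lowest CPM at day 2, against 34.6% of the 13812 clusters tested. At day 2, 5 of the 12 were called lower than at day 0, where 3.03% of all clusters were called lower, and 0 were called higher, where 3.41% were. The 5 were Msx2, Dlx4, Nfil3, Barx2 and the Cux1 coding sites, some of which the Cux1 short form shares. With 1 cluster per gene, that with the most tags, 4 of 9 were called lower. Among clusters with 200 tags or more, as 8 of the 12 had, 4.87% were 2-fold or more lower at day 2 than at day 0. The members were chosen with earlier results of these data known, so the shares in this paragraph cannot show that the group is special. Against day 1, the day 2 library had 4 of 12 called lower (background 1.1%) and 0 called higher (background 1.8%). The 4 were Barx2, Nfil3, Ovol1 and the Cux1 short form, whose protein is not a transcription factor, and the count was 3 with the authors' kept tags and 2 with table totals as library size. At day 1, by contrast, 0 of 12 were called lower than at day 0 (background 1.35%) and 0 higher (background 1.44%). The median log2 ratio of the 12 was -0.22 for day 1 over day 0, -0.95 for day 2 over day 0 and -0.97 for day 2 over day 1, where the medians over all clusters were -0.02, 0.01 and -0.02.

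**Figure D1:**
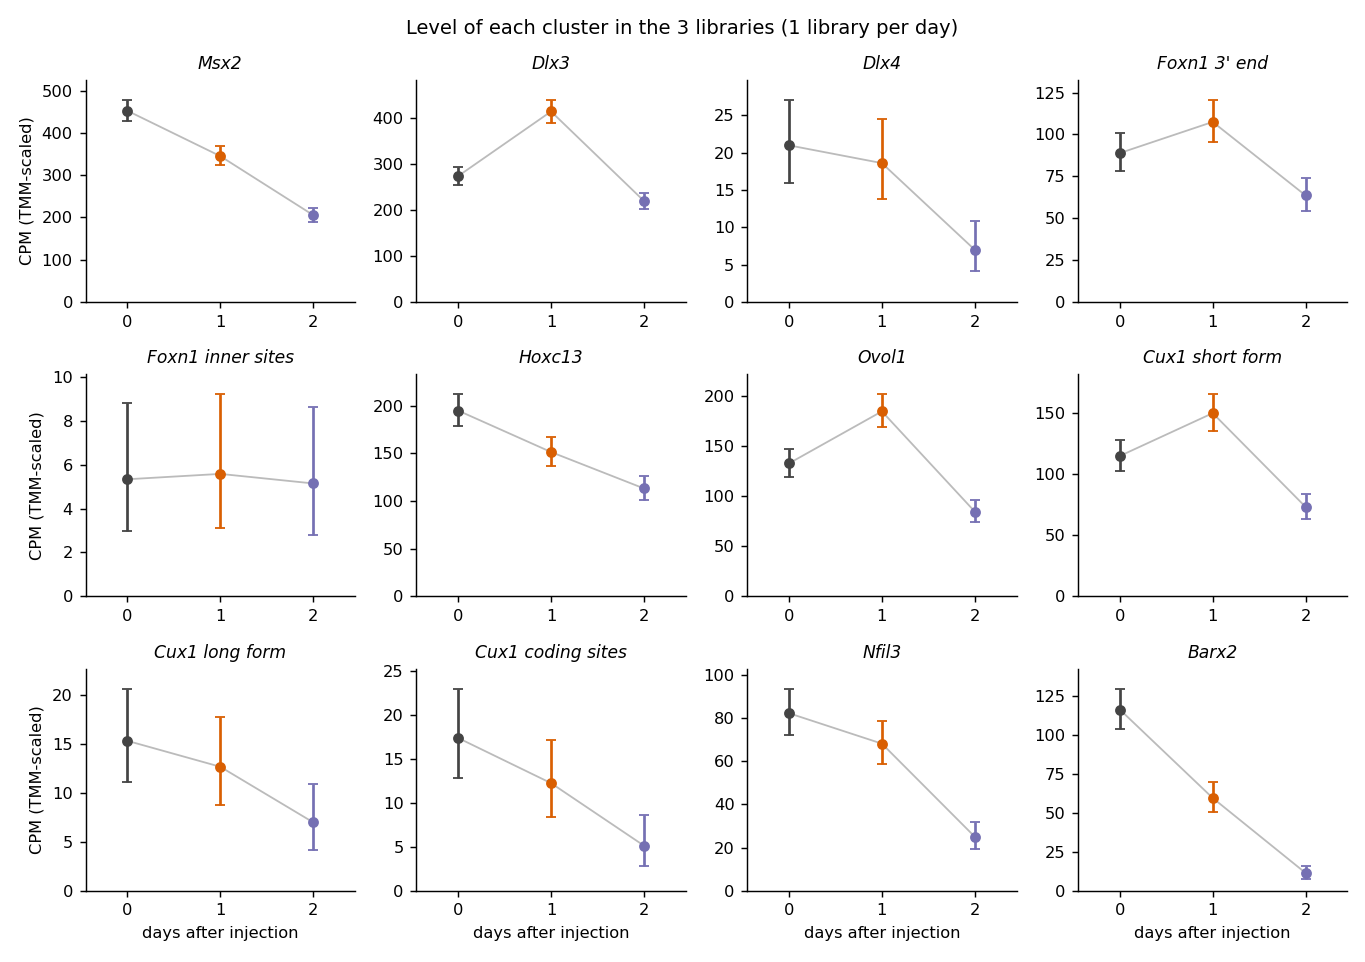
Level of each member cluster in CPM (vertical axis) in the untreated, day 1 and day 2 libraries (horizontal axis), 1 point per library, with bars for the exact 95% counting interval. Each panel has its own scale from 0. The day 2 point is the lowest in every panel. The day 1 interval lies wholly above that of day 0 for Dlx3, Ovol1 and the Cux1 short form and wholly below it for Msx2, Hoxc13 and Barx2. In the other panels the intervals of day 0 and day 1 overlap.

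Msx2, a homeobox repressor of the matrix and the precursors of the hair shaft that is known to act upstream of Foxn1, had 1274 tags at day 0, which became 929 at day 1 and 560 at day 2, or 453, 345 and 206 CPM. The 3 counting intervals do not overlap, and the level at each day was below that of the day before. The log2 ratio was -0.39 (-0.51 to -0.27) for day 1 over day 0, which is less than 2-fold. At day 2 Msx2 fell by 1.14 on the log2 scale (-1.28 to -0.99; adjusted p 7.5e-57, exact binomial test). It lies on the minus strand of chr13:53466884-53473074 (GRCm38, as are the coordinates of genes and tags here). Site 5 held 75.9% of its tags, at chr13:53468167-53468187, across the stop codon in exon 2 of 2. Site 1, in the 3' UTR at chr13:53467045-53467065, gave 306, 183 and 129 tags. Its log2 ratio at day 2 was -1.20 (-1.51 to -0.90), against -1.14 (-1.31 to -0.97) for site 5, and these intervals overlap.

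Dlx3 and Dlx4 are neighbouring distal-less homeobox genes on chromosome 11 that point toward each other. Dlx3, a direct target of Wnt signalling in the matrix that is needed for hair shaft formation, gave 768 tags at day 0, 1111 at day 1 and 596 at day 2. These are 273, 413 and 219 CPM, so the day 1 library was the highest and the 3 intervals do not overlap. The log2 ratio at day 1 was 0.60 (0.46 to 0.73; adjusted p 3.2e-17, exact binomial test), which is a ratio of 1.51 and under the 2-fold limit. At day 2 it was -0.32 (-0.48 to -0.16) against day 0 and -0.92 (-1.06 to -0.77) against day 1, neither called. Dlx3 lies on the plus strand at chr11:95120119-95125296, and 96.4% of its tags came from site 1 in the 3' UTR of exon 3 of 3, at chr11:95124453-95124473.

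Dlx4, at chr11:95140447-95146263 on the minus strand, was read from few tags. It gave 59, 50 and 19, or 20.97, 18.6 and 6.98 CPM, and the day 2 interval (4.20 to 10.9 CPM) lies under both others. Dlx4 fell by 1.56 on the log2 scale at day 2 (-2.42 to -0.82; adjusted p 1.1e-04, exact binomial test). Its day 1 ratio was -0.17 (-0.75 to 0.39). The count rests on site 1 in the 3' UTR, at chr11:95140661-95140681, with 57, 36 and 17 tags. Site 4, in the 5' UTR within exon 1 at chr11:95145496-95145516, gave 2, 14 and 2 tags. Without site 1 the log2 ratio of Dlx4 was 2.59 at day 1 and 0.04 at day 2.

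Hoxc13, the homeobox factor that binds and activates hair keratin promoters, gave 548, 407 and 308 tags. Its levels of 195, 151 and 113 CPM stepped down each day, and the 3 intervals do not overlap. The log2 ratio was -0.36 (-0.55 to -0.18) at day 1 and -0.78 (-0.99 to -0.58) at day 2 over day 0, a ratio under the 2-fold limit despite an adjusted p of 2.5e-13 in the exact binomial test. Hoxc13 lies on the plus strand at chr15:102921103-102928814. Site 1, in the 3' UTR at chr15:102927831-102927851, gave 536, 386 and 290 tags, and site 2, in the coding part of exon 1, gave 12, 21 and 18. Without site 1 the ratio had the opposite sign, 0.85 at day 1 and 0.61 at day 2, on those few tags.

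Foxn1, the forkhead factor missing in nude mice, was read mostly at its 3' end. That cluster gave 250 tags at day 0, 289 at day 1 and 173 at day 2, or 88.9, 107 and 63.5 CPM. The day 2 interval (54.4 to 73.8 CPM) lies under both others, while those of day 0 and day 1 overlap. Its log2 ratio was 0.27 (0.02 to 0.52) at day 1, with an adjusted p of 0.1132, and -0.48 (-0.77 to -0.20) at day 2 over day 0, where the exact binomial test gave an adjusted p of 0.0041. Neither was called, nor was day 2 over day 1 at -0.76 (-1.04 to -0.48). The tag lies in the 3' UTR of exon 9 of 9 at chr11:78357715-78357735, in a gene on the minus strand at chr11:78357577-78386558. The second Foxn1 cluster, made of sites further inside the transcript, had 15, 15 and 14 tags, too few to show a change of the size seen at the 3' end.

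Ovol1 gave 373, 496 and 230 tags. Its 133, 184 and 84.5 CPM rank day 1 highest and day 2 lowest, with 3 intervals that do not overlap. The log2 ratio was 0.48 (0.28 to 0.67) at day 1, not called, and -0.65 (-0.89 to -0.41) at day 2 over day 0, not called. Between day 1 and day 2 Ovol1 fell by 1.12 (-1.36 to -0.90; adjusted p 3.4e-22, exact binomial test). With plain totals of the tables in place of TMM this was -0.99, just short of 2-fold. Ovol1 is on the minus strand at chr19:5549136-5560646. Both main sites lie in the 3' UTR of exon 4 of 4, site 4 at chr19:5550407-5550427 with 248, 309 and 149 tags and site 1 at chr19:5549418-5549438 with 116, 176 and 78. The order of the 3 libraries was the same at each site.

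**Figure D2:**
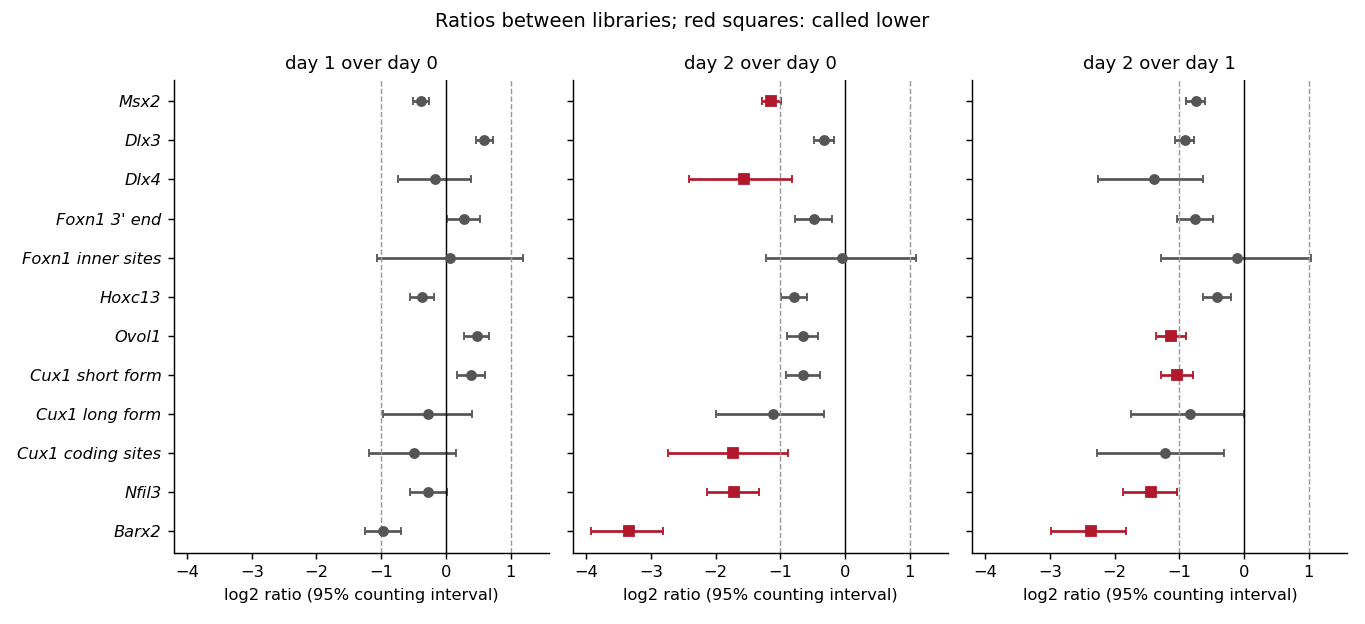
Log2 ratio of each member cluster (horizontal axis) in the 3 comparisons of libraries, with exact 95% counting intervals as bars, red squares for clusters called lower and dashed lines at 2-fold. At day 1 over day 0 the intervals of 3 clusters lie below 0 and those of 4 above it. The share over all clusters was not counted for day 1 alone. All of these also lie below 0 at day 2 over day 0. Of the 13812 clusters tested, 9.32% lay below 0 at both days, and 0.992% above 0 at day 1 and below at day 2. At day 2 over day 0, and over day 1, the intervals of 11 of 12 member clusters lie below 0. Over the 13812 clusters tested the shares were 18.7% and 15.3%, and over those with 200 tags or more 30.1% and 28%.

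Cux1 makes different proteins from 1 gene, at chr5:136248135-136567490 on the minus strand. The long transcripts encode the homeodomain protein with its cut repeats, a repressor known from the inner root sheath lineage. The short transcripts share upstream exons, end elsewhere and encode CASP, a Golgi membrane protein that lacks the cut repeats and the homeodomain. In the annotation, the short transcript Cux1-207 has 23 coding exons, of which 14 are shared with the long transcript Cux1-201.

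The largest Cux1 cluster was a single tag that matched short transcripts only, in their last exon at chr5:136248348-136248368. It gave 323, 403 and 199 tags, or 115, 150 and 73.1 CPM, highest at day 1 and lowest at day 2 with 3 intervals that do not overlap. Its log2 ratio was 0.38 (0.17 to 0.60) at day 1 and -0.65 (-0.91 to -0.39) at day 2 over day 0, neither called. From day 1 to day 2 it fell by 1.03 (-1.29 to -0.79; adjusted p 8.7e-16, exact binomial test). The ratio was -0.92 and -0.90 when the authors' kept tags or the table totals set the scale, and the call was lost.

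Tags found only in long transcripts were fewer, 73, 59 and 33 in all, from 5 sequences in 2 clusters. Their levels were 25.9, 21.9 and 12.1 CPM, with a log2 ratio of -0.24 (-0.76 to 0.27) at day 1 and -1.09 (-1.74 to -0.49) at day 2. The cluster with the long 3' UTR gave 43, 34 and 19 tags and was not called at day 2 (adjusted p = 0.0201, exact binomial test). The cluster of coding sites gave 49, 33 and 14 tags and fell by 1.73 at day 2 (-2.73 to -0.88; adjusted p 1.6e-04, same test). That cluster mixes forms: site 7, in coding exon 23 of 24 of the long form at chr5:136279670-136279690, gave 28, 22 and 14 tags. Site 7 alone had a log2 ratio of -0.93 (-1.99 to 0.02) at day 2 over day 0, under 2-fold and with an interval that includes 0. Site 17, in coding exon 13 at chr5:136316015-136316035, is present in both forms and gave 17 and 5 tags and was not listed at day 2.

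Among tags that tell the forms apart, the long form made up 18.4% (Wilson 95% interval 14.9 to 22.6) at day 0, 12.8% (10.03 to 16.1) at day 1 and 14.2% (10.3 to 19.3) at day 2. The short form's day 1 ratio exceeded the long form's by 0.63 on the log2 scale (0.06 to 1.19), 1 interval among many compared below and not adjusted for their number. At day 2 over day 0 the difference was 0.45 (-0.23 to 1.14), which includes 0. The split of tags into short and long was made after their values were seen.

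**Figure D3:**
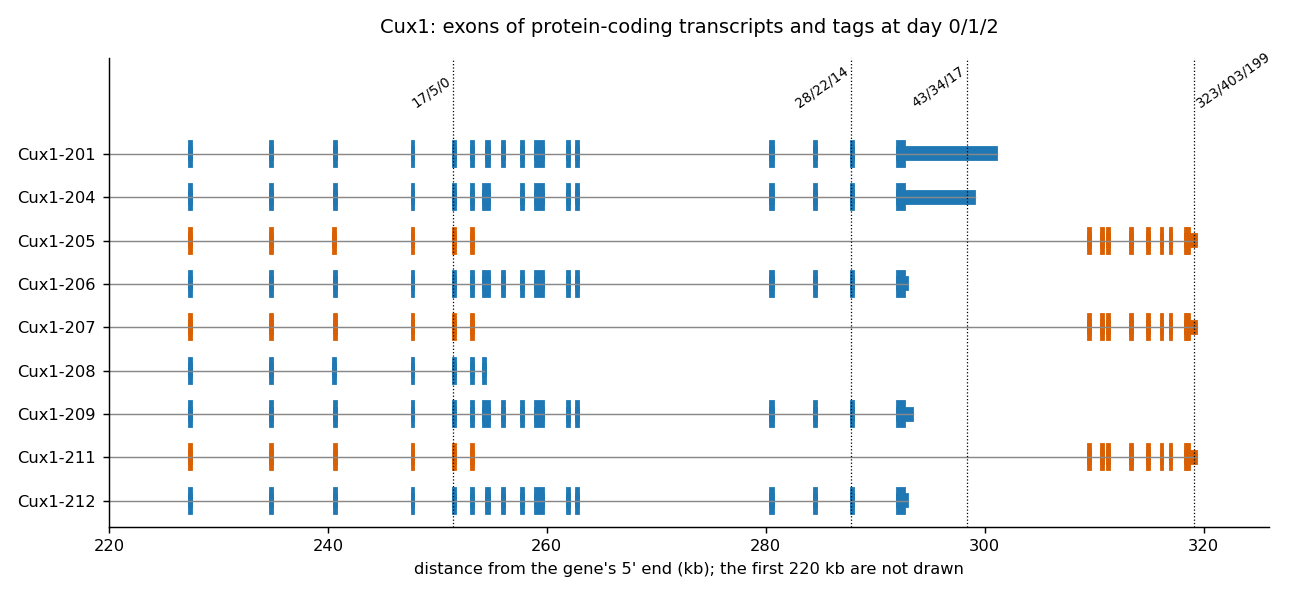
Exons of the coding transcripts of Cux1 to scale (horizontal axis, distance from the gene's 5' end in kb, first part not drawn), with tall boxes for coding parts, low boxes for UTRs, short transcripts in orange and the others in blue. Dotted lines mark the 4 tags with the most copies, with their raw counts at days 0, 1 and 2. The tag with 323, 403 and 199 copies lies in the last exon of the short transcripts, beyond the end of the long ones.

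Nfil3, a basic leucine zipper repressor best known from circadian and immune regulation, gave 231, 183 and 68 tags. Its levels were 82.1, 68.0 and 24.98 CPM, with overlapping intervals at day 0 and day 1 and a day 2 interval (19.4 to 31.7 CPM) far under both. The log2 ratio at day 1 was -0.27 (-0.56 to 0.02). At day 2 Nfil3 fell by 1.71 against day 0 (-2.13 to -1.32), with an adjusted p of 3.2e-19, and by 1.44 against day 1 (-1.87 to -1.04), with an adjusted p of 4.2e-12, both in the exact binomial test. Site 1, in the 3' UTR of exon 2 of 2 at chr13:52967436-52967456, held 96.9% of its tags, in a gene on the minus strand at chr13:52967209-52981073. The few tags of its other sites gave -0.49 at day 2, not called.

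Barx2, a homeobox factor linked to cell adhesion and the remodelling of hair follicles, had the largest difference of all members. Its 327 tags at day 0 became 160 at day 1 and 31 at day 2, or 116, 59.5 and 11.4 CPM, with 3 intervals that do not overlap. The level at day 0 was 1.95 times that at day 1 and 10.1 times that at day 2. The log2 ratio at day 1 was -0.96 (-1.25 to -0.69), which was not called because it fell short of 2-fold. At day 2 Barx2 fell by 3.33 against day 0 (-3.93 to -2.82), with an adjusted p of 2.5e-59, and by 2.37 against day 1 (-2.99 to -1.82), with an adjusted p of 1.1e-20, both in the exact binomial test. Barx2 lies on the minus strand at chr9:31846044-31913462, and 97.9% of its tags came from a site in coding exon 2 of 4 at chr9:31858764-31858784, 1151 bases from the annotated end of the transcript. The other site, in exon 1, gave 4, 3 and 4 tags. The day 1 ratio was -1.04 or -1.09 and was called lower when the authors' kept tags or the table totals set the scale.

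Ranked from the lowest ratio among the 5610 clusters with 200 tags or more, Barx2 stood at 4 for day 2 over day 0, Nfil3 at 23 and Msx2 at 173. Hoxc13 stood at 504, the Cux1 short form at 722, Ovol1 at 724, the Foxn1 3' end at 1142 and Dlx3 at 1650. For day 2 over day 1 the order among members was different, with Barx2 at 6, Nfil3 at 28, Ovol1 at 80, the Cux1 short form at 104, Dlx3 at 160, Foxn1 at 282, Msx2 at 295 and Hoxc13 at 1082.

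**Figure D4:**
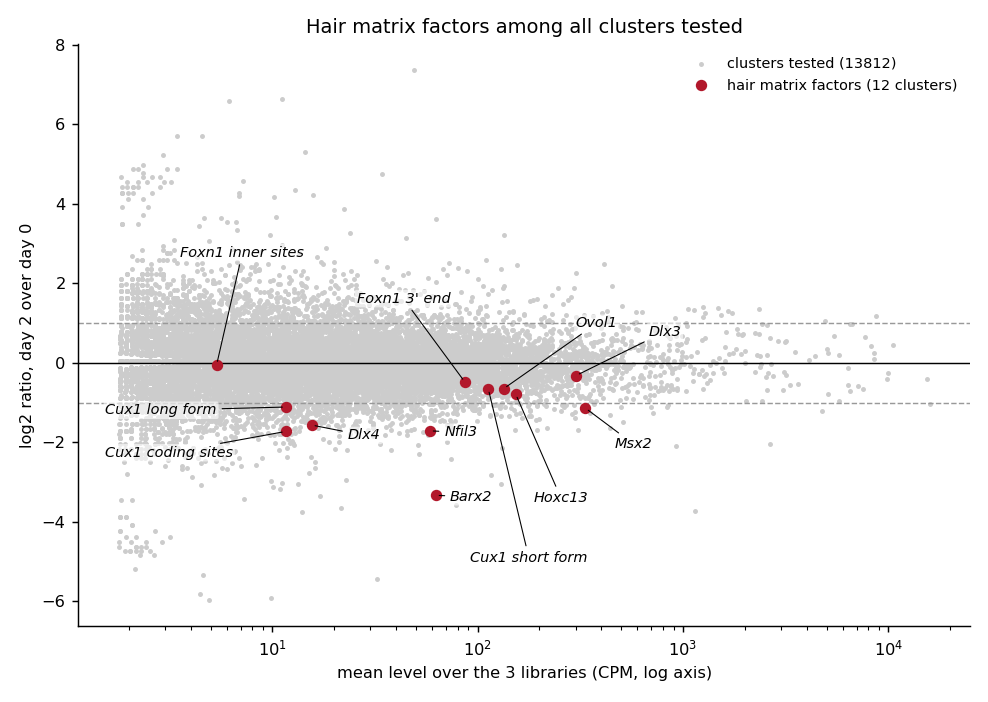
Log2 ratio of day 2 over day 0 (vertical axis) against the mean level over the 3 libraries in CPM (horizontal log axis) for the 13812 clusters tested, with the 12 member clusters in red. Dashed lines mark 2-fold either way. All 12 lie below 0, as do 49.6% of the clusters tested, and Barx2 is the lowest of the 12.

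The members did not share a direction at day 1, when their log2 ratios ran from -0.96 to 0.60, while at day 2 over day 0 they ran from -3.33 to -0.05. The exact intervals of the day 1 ratio lay above 0 for Dlx3, the Foxn1 3' end, Ovol1 and the Cux1 short form, and all 4 had an interval below 0 at day 2 over day 0. That sequence was seen in 2.35% of the 5610 clusters with 200 tags or more. Msx2, Hoxc13 and Barx2 had intervals below 0 at both days, as did 16.3% of those clusters. This split was described after the values were seen. It rests on intervals, since none of the 7 was called at day 1 and the adjusted p of the exact binomial test was above 0.001 for Foxn1 (0.1132), the Cux1 short form (0.0030) and Hoxc13 (0.0011). Foxn1's lower bound of 0.02 is also smaller than the shifts of -0.07 and -0.13 in the median of all clusters when kept tags or table totals set the scale.

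The ratio of 1 member's ratio to another's needs no scaling factor, so it was computed for all 78 pairs in each comparison, including the long-only Cux1 tags, with intervals not adjusted for the 234 pairs. The interval excluded 0 in 33 pairs at day 1 over day 0, in 40 at day 2 over day 0 and in 22 at day 2 over day 1. No such count was made for pairs of other clusters. The long-only tags are also part of the Cux1 long form and coding sites clusters, so those pairs are not independent. All 12 pairs between the 4 clusters above 0 and the 3 below 0 at day 1 excluded 0 there, as their choice makes likely, and 9 did so at day 2 over day 0. Msx2 against Dlx3 gave -0.99 (-1.17 to -0.81) at day 1 and 0.17 (-0.04 to 0.38) from day 1 to day 2. The 2 homeobox genes thus parted between day 0 and day 1, and their ratios from day 1 to day 2 did not differ beyond counting error.

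Hoxc13 against Ovol1 gave -0.84 (-1.11 to -0.57) at day 1, -0.13 (-0.45 to 0.19) at day 2 over day 0 and 0.71 (0.39 to 1.03) from day 1 to day 2. Their courses differed in each single step, and the interval over both days includes 0. Dlx3 against Dlx4 gave 0.77 (0.19 to 1.36) at day 1 and 1.27 (0.48 to 2.11) at day 2, so the neighbouring genes differed in both comparisons with day 0. Nfil3 against Barx2 gave 1.63 (0.95 to 2.34) at day 2 over day 0. Ovol1 against the Cux1 short form gave 0.09 (-0.20 to 0.39) at day 1 and 0.00 (-0.36 to 0.36) at day 2.

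**Figure D5:**
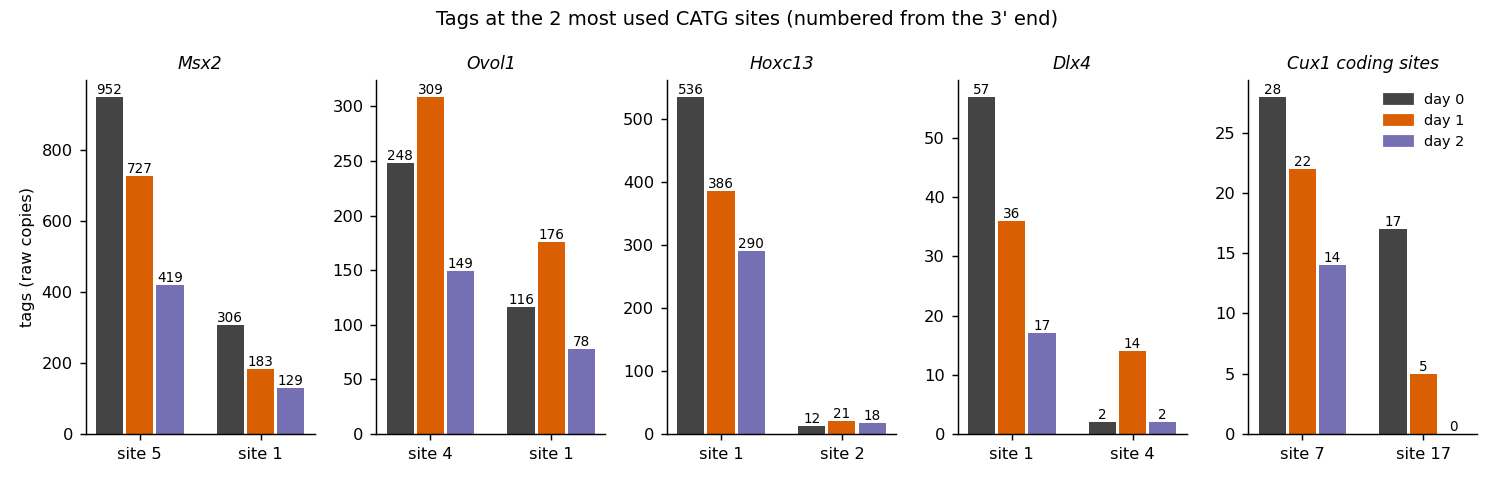
Raw tags (vertical axis, each panel on its own scale from 0) at the 2 CATG sites with most tags in Msx2, Ovol1, Hoxc13, Dlx4 and the Cux1 coding cluster, with 1 bar per library (day 0 grey, day 1 orange, day 2 purple), not scaled to library size. Both sites of Msx2 step down over the days and both sites of Ovol1 are highest at day 1, while site 4 of Dlx4 has 14 tags at day 1 and 2 at the other days. A bar written as 0 is a tag not listed in that library.

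Whether the sites of a gene moved alike was tested with Fisher's exact test on the 2 sites with most tags. Of 6 member clusters tested, 0 were called at day 1 over day 0, where 2.06% of 4952 clusters were. None of the 6 was called at day 2 over day 0 (background 2.99%) or day 2 over day 1 (background 0.828%). Dlx4 came nearest at day 1, with an adjusted p of 0.0073 in Fisher's exact test. Barx2 was outside this test because its other site had under 15 tags. With a minimum of 5 tags per site its adjusted p at day 2 over day 0 was 0.0450, not called at 0.001. For Msx2 the adjusted p at day 1 was 0.1442, for Hoxc13 0.1323 and for Ovol1 0.5202.

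The genes whose pair of ratios over day 0 was closest to a member's were named by Euclidean distance on the log2 scale, over 2 ratios and 3 libraries, among 5027 genes. Closest to Ovol1 were Krt28, an inner root sheath keratin (distance 0.03), Dsc1, a desmosomal cadherin (0.10), and Krt73, also an inner root sheath keratin (0.11). For the Cux1 short form they were Perp, Exosc10 and Krt28. For Msx2 they were Map2k3, Prdx5 and Akirin2, for Dlx3 Arhgap39, Thsd1 and Ankrd9, and for Hoxc13 Gabpb2, Hprt and Ipo8. For the Foxn1 3' end they were Otub1, 2310007B03Rik and Fam214b. The 3 named are the nearest of more genes at close distance for several members. Within 0.1 lay 42 genes for Hoxc13, 31 for the Foxn1 3' end, 16 for Msx2, 11 for Dlx3, 6 for the Cux1 short form and 2 for Ovol1. No gene came within 0.1 of Nfil3, whose nearest were Uck2 (0.14), Nkd2 (0.17) and Lage3 (0.23). None came within 0.1 of Barx2 either, whose nearest were Apobec2 (0.25), Selenbp1 (0.43) and, much further off, Aldh1a3 (0.96). Apobec2 gave 413, 204 and 33 tags.

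Paralogs of the members were mostly low. Of 26 genes listed by family, 17 had a cluster and 12 had enough tags to test, and only Tef, an activator of the leucine zipper family closest to Nfil3, was called. Tef gave 237, 372 and 483 tags and rose by a log2 ratio of 1.07 at day 2 (0.85 to 1.30, adjusted p 1.8e-20, exact binomial test), where Nfil3 fell. The median of the 12 at day 2 over day 0 was 0.20.

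Among other transcription factors of the follicle, 38 of 47 were tested and 2 were called lower at day 2, with a median of -0.27. Gata3, which specifies the inner root sheath, fell by 1.07 (1134, 772 and 523 tags), and Tfap2c, an AP-2 factor of keratinocytes, fell by 1.04 (194, 190 and 91 tags). Tbx1 was lower at day 1 and higher at day 2 than at day 1, with 156, 72 and 175 tags.

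Of the signals that act on the matrix, 24 of 27 genes were tested. Shh, the hedgehog ligand made by matrix cells, gave 68, 8 and 14 tags and was called lower at both days, by a log2 ratio of -2.95 (-4.29 to -1.96) at day 1 and -2.19 (-3.18 to -1.39) at day 2. Wnt11 gave 249, 158 and 68 tags and fell by 1.82 at day 2, and Wnt10b, an early Wnt ligand of the follicle, gave 35, 16 and 6 and fell by 2.40. Wnt3 gave 169, 299 and 146 tags, highest at day 1 as Dlx3 was, and fell by 1.05 from day 1 to day 2. Higher at day 2 than at day 1 were Fgfr2, a receptor for keratinocyte growth factor, with 157, 87 and 240 tags, and its ligand Fgf7, with 9 tags at day 0, 15 at day 2 and none listed at day 1. The list's median at day 2 over day 0 was -0.25.

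Hair structural genes tied to these factors were followed on a list of 36, of which 29 were tested. At day 1, 4 were called higher and 0 lower, with a median of 0.60. The 4 were Krt32, Krt72, Gprc5d and Lama3. At day 2 over day 0, 1 was higher (Lama3) and 3 were lower (Krt35, Krt36 and Krt25), with a median of -0.03, and from day 1 to day 2, 10 were lower and 0 higher, with a median of -0.71. Over all clusters tested, 1.44% were called higher and 1.35% lower at day 1. At day 2 over day 0 these shares were 3.41% and 3.03%, and from day 1 to day 2 they were 1.8% and 1.1%. The same shares are the background for the other gene lists, and none was counted at the depth of the listed genes. Krt35, a keratin of the early hair cortex and cuticle, gave 3968, 2747 and 901 tags and fell by 2.09 at day 2. Most other hair keratins did not follow that course. Krt31, Krt33b, Krt34, Krt82 and Krt86 were above day 0 at both days. Their log2 ratios at day 2 over day 0 were 0.22, 0.16, 0.29, 0.92 and 0.57, none called. Krt33a was at 0.11 and Krt84 at -0.10, not called either. Krt25 and Krt27, keratins of the inner root sheath, gave 45778, 63618 and 21484 tags and 18120, 32115 and 11197, highest at day 1. From day 1 to day 2 they fell by 1.58 and 1.54, and Padi3, which modifies hair proteins, fell by 1.39. Krt32 gave 1546, 3596 and 2399 tags and rose by 1.28 at day 1.

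Markers of the cell types in whole skin were summed beside these results, and their part in them was not tested. The 10 keratinocyte markers summed to 14450, 20753 and 18755 CPM at days 0, 1 and 2, with 0 called in any comparison. Most of that sum came from Krt10 (6339, 9936 and 8441 CPM), Krt5 and Krt17. Ratios of 0 of the 10 were below 0 at day 1 and of 3 at day 2 over day 0. The 3 were Perp (-0.64, -0.85 to -0.43), Cdh3 (-0.46) and Cdh1 (-0.07). The 12 listed cell cycle genes summed to 857, 857 and 937 CPM, also with 0 called. Dermal papilla markers, 8 of 10 listed, summed to 78.6, 66.2 and 58.8 CPM. Of the 6 that were tested, Hhip, a hedgehog-binding protein with 33, 6 and 7 tags, was called lower at both days, and Lepr, with 32, 16 and 5, was called lower at day 2. Ratios of 5 of the 6 were below 0 at day 2 over day 0. Alx4 went the other way, with 21, 25 and 45 tags and a ratio of 1.13 (0.37 to 1.97), not called. Sostdc1, with the most tags, gave 88, 99 and 79, a ratio of -0.11 at day 2.

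Skeletal muscle markers, all 13 listed, summed to 11804, 18167 and 24410 CPM, with 5 called higher at day 1 and 7 at day 2. Among them Actn3 gave 554, 1108 and 2045 tags and Mb, myoglobin, gave 745, 1433 and 1940. Macrophage markers, 9 of 12 listed, summed to 279, 300 and 631 CPM. Fcgr1 was called higher at day 1, and Mrc1, C1qc, Fcgr1, Ms4a7 and Cd163 at day 2. Ratios of 4 of the 9 were below 0 at day 1, and that of 1 at day 2 over day 0. That 1 was Adgre1, with 84, 43 and 72 tags, a ratio of -0.89 (-1.47 to -0.35) at day 1 and -0.17 at day 2, not called. The T and NK cell list, 6 of 9 listed, summed to 144, 212 and 307 CPM, of which Thy1, which fibroblasts also express, made up 134, 202 and 295. Thy1 was called higher at day 2, and Cd3d and Trdc, at 5.14 CPM or less, were not called.

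Fibroblast markers, 9 of 10 listed, summed to 3524, 2322 and 3862 CPM, with Lum, Pdgfra and Loxl1 called higher at day 2 than at day 0. Col1a2, with the most tags of this list, was lower at day 2, at -0.45 (-0.52 to -0.38), not called. Col3a1 (-0.14) and Dpt (-0.08) were also below 0, so the fibroblast list had no common direction. The adipocyte sum of 3895, 2850 and 2198 CPM was mostly Fabp4 (3346, 2197 and 1708 CPM, not called). Lep, with 17, 46 and 53 tags, was called higher at day 2, and Cfd gave 288, 417 and 406 tags, so the list had no common direction. Melanocyte markers summed to 530, 751 and 626 CPM, with Pmel higher and Mitf lower at day 2 and Pmel and Slc45a2 higher at day 1. Slc45a2 was called lower at day 2 than at day 1. Ratios of 3 of the 7 were below 0 at day 1 and of 4 at day 2 over day 0, so this list had no common direction either. Endothelial markers summed to 86.4, 95.2 and 149 CPM, with Vwf higher at day 2. Red cell markers, 5 of 7 listed, summed to 1810, 1619 and 141 CPM, mostly from Hba-a1 (1757, 1559 and 133 CPM), whose tags other genes share. All 4 red cell markers tested were called lower at day 2, Hba-a1, Hba-a2, Hbb-bs and Alas2.

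The limit common to all these results is the single library per group. If replicate libraries of a group varied with a coefficient of 0.2, edgeR's exact test would put 2 of the 5 clusters called lower at day 2 under an adjusted p of 0.05, Barx2 (5.8e-08) and Nfil3 (0.02), and of these Barx2 alone under 0.001. With a coefficient of 0.4 it would leave 0, with Barx2 at an adjusted p of 0.26.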

How the data were processed

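Per the labels' protocols, polyadenylated RNA of whole skin was copied into cDNA on oligo(dT) beads, cut with NlaIII, trimmed with MmeI to tags, amplified and read on an Illumina Genome Analyzer. The deposited tables, per the file headers, give each UniGene cluster a raw tag count and a TPM, with the copies and CATG site of each tag. The deposited TPM values divide the counts by all tags the authors kept (6030093, 6070058 and 5666060), of which 45.3%, 47.1% and 46.5% are in the tables. No copy number under 2 is listed, so a tag not listed need not be at 0. Not given in the sources used here are the aligner, the mismatches allowed and the UniGene and genome builds.

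Clusters were named by exact sense matches of tags to GENCODE M21 transcripts (GRCm38), needing 80% of matched and 50% of all tags. Of 20595 clusters, 15076 were named by tags of 1 gene, 767 by shared tags and 4752 not. Counts were scaled with TMM (edgeR 4.0.16 in R 4.3.3; factors 1.03, 0.94 and 1.03). Clusters with 15 tags or more were tested with a two-sided exact binomial test, since edgeR's quasi-likelihood fit cannot be made without replicates, and log2 ratios carry 0.5 tags as pseudocount. Scripts were tested on simulated data. Statistics used scipy 1.17.1. Alternatives were DESeq2 1.42.0 size factors, other library totals, count filters, tag choices, thresholds and edgeR's exact test with an assumed variation. PCR copies are not independent molecules, and p-values and intervals measure only these 3 libraries.

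The members and gene lists were chosen with earlier results of these data known. All members are named. From the lists of paralogs, follicle factors, signals and structural genes the text names called genes that reach 20 CPM in some library, at most 6 with the largest change. Wnt10b, Fgf7, Krt72, Gprc5d, Lama3 and the marker genes of cell types were named after their values were seen. So were the uncalled hair keratins Krt31, Krt33a, Krt33b, Krt34, Krt82, Krt84 and Krt86. The 3 most alike genes are named for each member cluster with 200 tags or more.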

Additional observations from a re-analysis of the deposited data

How the results depend on the processing

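Of the log2 ratios of members recomputed under the alternatives, 214 kept their direction and side of the threshold, 8 changed sign, 2 passed it newly and 5 no longer did. The count of members called lower at day 1 was 1 in place of 0 with kept tags, table totals or a 1.5-fold limit, and 1 was called higher at 1.5-fold. At day 2 over day 0 the count of 5 became 2 without each cluster's top tag, 8 at 1.5-fold, 2 with an assumed coefficient of variation of 0.2 and 0 with 0.4. The tests with an assumed coefficient also used an adjusted p of 0.05 and no fold limit in place of 0.001 and 2-fold, and at 0.001 Barx2 alone would pass at 0.2 (5.8e-08). At day 2 over day 1 the count of 4 became 2 with table totals, 1 without the top tag, 7 at 1.5-fold, 1 with a coefficient of 0.2 (Barx2 at 0.0012, above 0.001) and 0 with 0.4. For shifts of site use, 1 member (Dlx4) passed at an adjusted p of 0.05, and with 5 tags per site Barx2 had 0.0450 at day 2 over day 0. Table totals moved the median ratio of all clusters by -0.13 at day 1 over day 0 and 0.13 at day 2 over day 1, and kept tags moved the latter by 0.11. The inner Foxn1 sites gave -0.01 (kept tags), -0.06 (table totals) and -0.08 (without the top tag) at day 1, and 0.02 at day 2 over day 1 with table totals. Without the top tag, Dlx4 gave 2.59 and 0.04 at days 1 and 2 over day 0, Hoxc13 gave 0.85 and 0.61, and Nfil3 gave -0.49 at day 2 over day 0 and -0.31 over day 1. That setting uses far fewer tags, and members left with under 15 tags, Barx2 among them, have no value there.

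Over all clusters, lower and higher calls at day 1 over day 0 were 187 and 199. They were 265 and 156 with kept tags, 338 and 128 with table totals, 21 and 43 without the top tag, 511 and 563 at 1.5-fold, 397 and 374 at an adjusted p of 0.05, 13 and 16 with a coefficient of 0.2, and 0 and 0 with 0.4. At day 2 over day 0 the 419 and 471 became 58 and 99, 853 and 788, 696 and 765, 95 and 146, and 1 and 5 under the same settings after table totals, with 371 and 522 for kept tags. At day 2 over day 1 the 152 and 249 became 42 and 43, 430 and 476, 298 and 474, 33 and 57, and 0 and 2, with 106 and 347 for kept tags, 100 and 371 for table totals, and 100 and 212 for the site nearest the 3' end. The cause of these moves was not tested beyond the setting itself. No paired analysis was possible because each group has 1 library, and the groups share only the number 1. For the same reason no library could be left out of its group. Members under about 20 CPM, such as Dlx4 and the long Cux1 form, have wide counting intervals, so moderate changes in them were not detectable at this depth.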
